A study of Mus musculus with 12 samples.

Results

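The comparison described here is the effect of adding butyrate to mouse prostate organoids whose mitochondrial pyruvate import was already blocked. It sets 3 RNA-seq libraries of organoids given UK5099 + Butyrate against 3 of organoids given UK5099 alone. Genes were taken whose mean reached 1 TPM, the deposited read density scaled to 1 total per library, in either of these groups. This held for 13759 of the 24674 genes in the table, of which 10244 were protein coding, 871 lncRNA, 2191 pseudogenes and 453 of other types. A mean of at least 1 TPM was reached in both groups by 12463 genes, in UK5099 only by 836 and in UK5099 + Butyrate only by 460. Just inside the limit were Gm45447, at 0.503 TPM in UK5099 and 1.0 in UK5099 + Butyrate, and Add2, at 1.0 and 0.618. Just outside were Fst, at 0.24 and 0.999, and Ermard, at 0.998 and 0.94.

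All 12 libraries of the study came from basal-derived prostate organoids of C57BL/6 mice labelled Wildtype, grown in 3 replicates each of Vehicle, UK5099, Butyrate and UK5099 + Butyrate. The labels give no dose, animal, age or culture for a replicate, so the p-values below measure the spread between these samples, which may be technical. Organoids were sequenced whole. Fewer cells of a type and less RNA per cell therefore cannot be told apart in any of these values.

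UK5099 inhibits the mitochondrial pyruvate carrier, a pair of inner membrane proteins encoded by Mpc1 and Mpc2 that lets cytosolic pyruvate reach pyruvate dehydrogenase and the TCA cycle. Butyrate is a short-chain fatty acid that can enter mitochondria without this carrier, where it is oxidised to acetyl-CoA, and it also inhibits class I histone deacetylases in the nucleus. Prostate basal cells express Krt5, Krt14 and Trp63 and can give rise to Krt8 and Krt18 positive luminal cells, and in culture they can also take on squamous features, with the keratins and cornified envelope proteins of stratified epithelium.

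Values below are TPM per library, in the order of replicates 1 to 3. Differences are of mean log2(TPM + 1), with the standard error from limma, and a gene was called where its Benjamini-Hochberg adjusted p was under 0.01 and its absolute log2 difference over 1. Adding 1 understates the change of genes with low values. TPM was made with the genomic span of each gene, introns included, so levels are not compared between genes.

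So that the largest differences can be seen beside the DNA in front of the genes, the 250 bases before the RefSeq transcription start are printed for the 2 genes with the highest and the 2 with the lowest differences among the protein-coding genes with a single listed start. They are read 5′ to 3′ from RefSeq on GRCm38.p6, a build other than that of the deposited table. Capitals mark matches on either strand to a GC box (GGGCGG), an AP-1 site (TGANTCA) or a TATA box (TATAAA). Thbs2 and Rptn were higher with butyrate, Timp1 and Slco2a1 lower.
Thbs2, chr17:14694263-14694512, minus strand: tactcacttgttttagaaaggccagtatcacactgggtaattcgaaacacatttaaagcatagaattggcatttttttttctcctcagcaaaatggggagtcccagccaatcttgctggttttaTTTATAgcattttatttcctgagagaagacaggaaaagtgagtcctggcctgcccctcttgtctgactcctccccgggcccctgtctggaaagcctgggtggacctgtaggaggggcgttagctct
Rptn, chr3:93393449-93393698, plus strand: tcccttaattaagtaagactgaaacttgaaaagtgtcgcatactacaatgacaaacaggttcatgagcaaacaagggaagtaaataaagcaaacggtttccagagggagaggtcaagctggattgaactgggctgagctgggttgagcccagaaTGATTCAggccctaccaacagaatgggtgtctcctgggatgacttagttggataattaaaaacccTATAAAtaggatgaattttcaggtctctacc
Timp1, chrX:20869916-20870165, plus strand: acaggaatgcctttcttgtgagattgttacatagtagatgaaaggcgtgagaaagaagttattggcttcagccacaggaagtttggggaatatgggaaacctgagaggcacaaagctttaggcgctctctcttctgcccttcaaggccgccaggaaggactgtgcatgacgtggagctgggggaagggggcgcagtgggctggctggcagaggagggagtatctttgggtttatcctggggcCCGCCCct
Slco2a1, chr9:103008237-103008486, plus strand: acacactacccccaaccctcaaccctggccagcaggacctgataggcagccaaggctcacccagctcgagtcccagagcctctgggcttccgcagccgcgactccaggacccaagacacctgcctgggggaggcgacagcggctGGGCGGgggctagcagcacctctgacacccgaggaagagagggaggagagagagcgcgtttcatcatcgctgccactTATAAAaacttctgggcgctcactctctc

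Of the 32851 promoter windows listed for the mouse genome, 12.4% held the TATA box, 6.75% the AP-1 site and 32.7% the GC box. The protein-coding genes analysed here had 10348 windows for 8203 genes, with the TATA box in 6.58%, the AP-1 site in 4.7% and the GC box in 59.8%. For the genes called higher with butyrate, 135 windows of 115 genes held the TATA box in 23.7%, the AP-1 site in 15.6% and the GC box in 34.1%. For those called lower, 221 windows of 174 genes held them in 14%, 8.14% and 53.4%. The median number of CpG pairs per window was 6 for the genes called higher, 11 for those called lower and 16 for all protein-coding genes analysed. Windows of the same gene can overlap, and a match describes these letters alone.

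Depth was between 33251856 and 43498982 recovered fragments per library. The carrier genes were expressed in every library of the comparison. Mpc1 was at 6.02, 6.59 and 6.45 TPM in UK5099 and 3.94, 4.41 and 4.68 in UK5099 + Butyrate, and Mpc2 at 3.65, 3.64 and 3.33 against 2.82, 2.73 and 2.8. The basal markers Krt5, Krt14 and Trp63 were present in every library. Replicate 1 of UK5099 and replicate 1 of UK5099 + Butyrate stood apart from the other libraries of their groups. Between replicates, chi-square per degree of freedom over genes was 6.3 to 6.65 for pairs with these libraries and 1.98 to 2.65 for the other pairs of the same groups. Mitochondrial transcripts took 12.6% ± 0.519 of TPM in UK5099 and 18.1% ± 0.736 in UK5099 + Butyrate (SD, n = 3). TPM by genomic span gives short genes more weight, and of recovered fragments they took 2.64% ± 0.0923 and 4.68% ± 0.198.

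Butyrate raised 203 genes and lowered 284 in organoids also given UK5099. These were 1.48% and 2.06% of the 13759 genes analysed, and 0.823% and 1.15% of all 24674 genes in the table. A gene with means under 1 TPM in both groups cannot pass the size limit of 1. The second pair of shares therefore does not test such genes. A mean under 1 TPM in UK5099 was found for 57 of those that rose and one under 1 TPM in UK5099 + Butyrate for 48 of those that fell, so these entered only through the group where they are high. The values of the 3 and 3 libraries did not overlap for any of the 487. The share of all genes without overlap is not given here. Of the 13759 genes 10517 had an unadjusted limma p under 0.05, so the missing overlap is no added support for the calls. Protein-coding genes made up 155 of those that rose and 231 of those that fell, lncRNA 23 and 20, and pseudogenes 14 and 23. The median gene analysed had a log2 difference of -0.29, so all TPM differences have to be read against that shift. When libraries were scaled by the median of ratios instead, the median was 0.01, and 329 genes (2.39%) were higher and 115 (0.836%) lower. The share of calls that were higher went from 41.7% to 74.1%. All 203 genes called higher on deposited TPM were also called higher on this scale, and 115 of the 284 genes called lower kept their call, while none of the 487 changed sign. Without the 2 libraries that stood apart, 190 genes were higher and 269 lower.

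Among protein-coding genes the strongest rise was that of Thbs2, which encodes the matricellular protein thrombospondin 2. Its TPM was 2.36, 2.48 and 2.76 in UK5099 and 46.3, 49.5 and 51.3 in UK5099 + Butyrate, a log2 difference of 3.82 ± 0.05 (SE; limma adjusted p = 1.6e-10). The 2 groups were far apart, with means in a ratio of 19.3. Tff1, a secreted trefoil peptide of mucosal epithelia, went from 0.486, 0.471 and 0.405 to 21.7, 13.2 and 16.5 (3.61 ± 0.14). Pi15, a secreted peptidase inhibitor, rose from 0.743, 0.764 and 0.887 to 12.1, 14.3 and 13.8 (3.00 ± 0.05). Both were low in every UK5099 library and high in every library with butyrate, and both passed the limit of 1 TPM through UK5099 + Butyrate only. Over all gene types a small nucleolar RNA, Snord22, had the highest difference, at no more than 0.00438 TPM in UK5099 and at 28.2, 32 and 21.3 in UK5099 + Butyrate (4.80 ± 0.81). It was named after its values were seen, and only 7 of its 12 low values were whole fragments, so its level is uncertain.

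Rptn, a cornified envelope precursor, rose from 5.59, 4.52 and 6.9 TPM to 98.6, 69.9 and 68.5 (3.58 ± 0.16, adjusted p = 8e-08). Crct1, from the same gene complex on chromosome 3, rose from 1.91, 2.99 and 1.3 to 19.7, 21.4 and 21.3 (2.86 ± 0.19). The highest value of Rptn came from replicate 1 of UK5099 + Butyrate, one of the libraries that stood apart, and the other libraries with butyrate were also far above every UK5099 library. Stfa3 and Cstdc5 encode stefin A type cysteine protease inhibitors. Stfa3 went from 9.31, 9.76 and 10.5 to 87.7, 81.2 and 83.1 (2.97 ± 0.05), and Cstdc5 from 44.1, 47.1 and 48 to 446, 358 and 364 (3.04 ± 0.09). Of the 3 low values of Cstdc5 only 1 was a whole number of fragments, so fragments were divided with other genes and its level is uncertain.

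Fabp4, a fatty acid-binding protein, went from 1.38, 2.18 and 1.89 TPM to 22.3, 16.6 and 18.6 (2.84 ± 0.12), and Apoc1, an apolipoprotein, from 3.69, 3.49 and 3.5 to 25.9, 28.3 and 27.5 (2.63 ± 0.05). Gpnmb, a lysosomal and melanosomal glycoprotein, rose from 0.475, 0.509 and 0.58 to 8.39, 8.39 and 8.46 (2.63 ± 0.03). Chit1, a chitinase best known from macrophages, rose from 0.208, 0.291 and 0.258 to 6.81, 5.89 and 6.08 (2.53 ± 0.04). Gpnmb and Chit1 were under 1 TPM in UK5099 and entered through the other group. Outside the rule for named genes, and chosen after their values were seen, Apoe was at 57.3, 59.7 and 62.2 against 173, 179 and 172 (1.53 ± 0.05), and Fabp5 at 359, 375 and 390 against 1134, 983 and 979 (1.46 ± 0.06). Ckb, brain-type creatine kinase, rose from 2.63, 1.79 and 2.03 to 17, 18.3 and 17.9 (2.58 ± 0.10), with mostly fractional fragments at low values. Cd68, which is also a lysosomal protein of other cells, rose from 30, 29.7 and 30.9 to 97.1, 91.6 and 86.4 (1.57 ± 0.04), while the pan-leukocyte gene Ptprc was at or near 0, with a mean of 0.001 TPM in UK5099, Csf1r was at 0.014 and 0.016 and Itgam at 0.013 and 0.016. Only 1 of the 4 immune markers in the table reached 1 TPM.

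**Figure D1:**
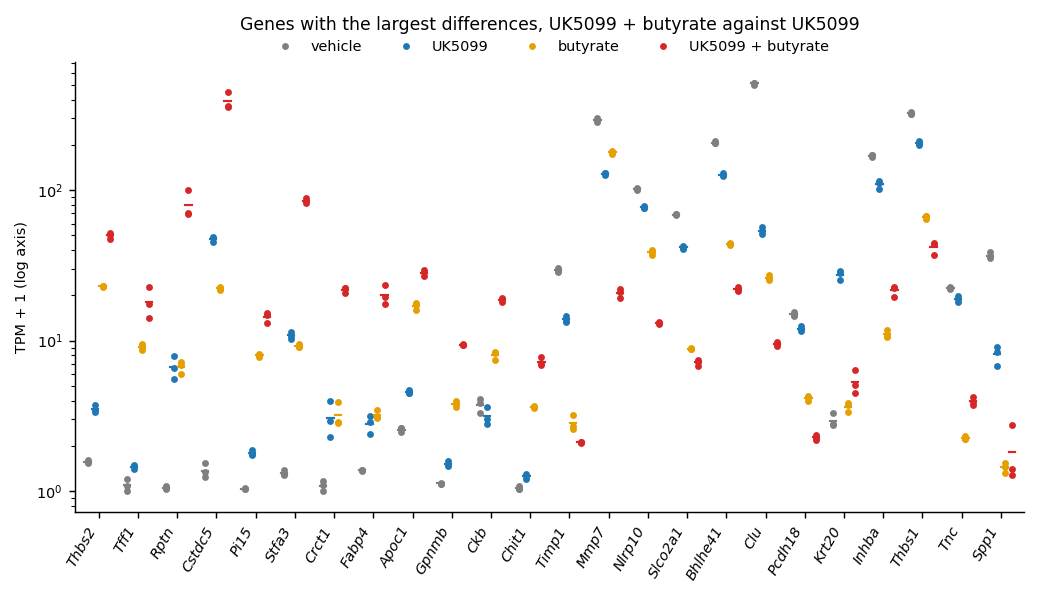
TPM + 1 on a log axis for the 12 protein-coding genes with the highest and the 12 with the lowest differences between UK5099 + Butyrate and UK5099, in all 4 groups. Points are single libraries and bars group means (n = 3). Red points lie above blue for Thbs2 to Chit1 and below blue for Timp1 to Spp1, with no overlap, which the choice of these genes required.

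Cornified envelope genes, which encode the cross-linked protein shell of squamous cells and its processing enzymes, were counted from a list. Of 44 listed genes, 41 were in the table and 29 analysed. Of these 29, 12 were called higher and none lower, beside the 1.48% of all genes analysed, and with median of ratios scaling 17 were higher. Their median log2 difference was 0.87, against -0.29 for all genes analysed. Sprr3, Tgm3, Tgm5, Scel and Klk11 among them passed the limit of 1 TPM through UK5099 + Butyrate only, so a difference was built into their choice.

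Calml3, a calmodulin-like protein of squamous epithelium, rose from 11.5, 9.83 and 11.7 TPM to 83.9, 48 and 51.1 (2.33 ± 0.20, adjusted p = 5.7e-06). Sbsn, suprabasin, rose from 43.4, 43.8 and 44.2 to 227, 207 and 212 (2.27 ± 0.06). Tgm3, the transglutaminase that crosslinks late envelope proteins, was at 0.078, 0.0617 and 0.0318 in UK5099, or 10 to 22 fragments, and at 1.98, 2.05 and 2.21 with butyrate, or 774 to 880 fragments. In vehicle and butyrate alone, Tgm3 was at means of 0.016 and 0.0116, both near 0, with no call between them (limma adjusted p = 0.88). Flg (filaggrin) had means of 1.84 and 7.21 TPM, Cnfn (cornifelin) 6.39 and 19.1, Dmkn (dermokine) 20.9 and 62.7, Crnn (cornulin) 150 and 364 and Tchh (trichohyalin) 12.2 and 27.7, all called higher.

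The other 17 envelope genes were not called, and 4 of these, chosen after their values were seen, are given here. Ivl, the early envelope scaffold involucrin, was at 174, 158 and 184 TPM in UK5099 and 187, 153 and 160 in UK5099 + Butyrate (log2 difference -0.05 ± 0.08, adjusted p = 0.65). Tgm1, the transglutaminase of the early envelope, was at a mean of 21.2 in both groups, and Ppl (periplakin) at 38.4 and 37.7. Ly6d was at 1221, 1151 and 1246 against 1194, 1039 and 1062. These values overlapped between the groups for Ivl and Ly6d and missed the call.

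**Figure D2:**
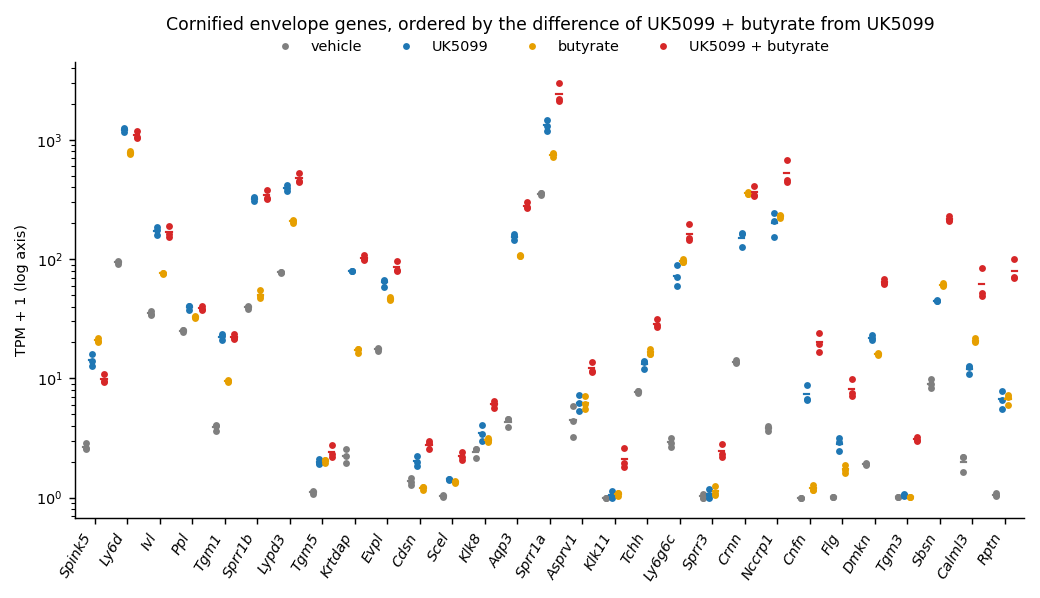
TPM + 1 on a log axis for the 29 cornified envelope genes analysed, ordered from the lowest to the highest difference between UK5099 + Butyrate and UK5099, in all 4 groups. Points are single libraries and bars group means (n = 3). Blue and red points overlap or lie close together for genes on the left, such as Ivl, and separate for genes on the right, such as Sbsn and Rptn.

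S100 proteins and stress keratins were split. S100a8 and S100a9, the subunits of calprotectin, rose from 33, 37.4 and 33.5 TPM to 156, 144 and 147 (2.08 ± 0.08) and from 29.7, 31.5 and 29.7 to 180, 162 and 168 (2.45 ± 0.07). S100a4 rose from 8.19, 7.97 and 9.62 to 24.6, 26.7 and 28.1 (1.52 ± 0.10). S100a1 fell from 12.9, 10.7 and 11.1 to 4.1, 4.35 and 4.21 (-1.26 ± 0.08), a call that median of ratios scaling did not keep. Thus 3 of the 11 S100 genes analysed were higher and 1 lower, beside 1.48% and 2.06% of all genes analysed. The other 7 were not called, and the list's median was -0.03.

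Among 11 suprabasal and stress keratins, Krt6b was called higher and Krt10 lower, beside 1.48% and 2.06% of all genes analysed. Krt6b, a hyperproliferation keratin, rose from 82.4, 91.5 and 92.9 TPM to 443, 350 and 358 (2.09 ± 0.09). Its low values were not whole fragments, so fragments were divided with other genes and the size is uncertain. Krt16 was at means of 488 and 960 (0.97 ± 0.05) and Krt6a at 4011 and 4597 (0.19 ± 0.05), under the size limit. With median of ratios scaling 4 keratins of this list were higher, and 1 lower.

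Krt10, the keratin that marks suprabasal cells of the epidermis, was the only gene analysed that was called in opposite directions for butyrate with and without UK5099. It was at 115, 108 and 132 TPM in UK5099 and 42.6, 31.2 and 33.7 in UK5099 + Butyrate (-1.70 ± 0.11, adjusted p = 8.4e-07). Without UK5099 it was at a mean of 2.63 in vehicle and 8.14 in butyrate, a rise of 1.33. The difference of the 2 effects was -3.03 ± 0.16 (adjusted p = 2.1e-06). Its level in UK5099 + Butyrate therefore lay between those of butyrate alone and UK5099 alone. Its partner Krt1 was at means of 7.79 and 8.29 TPM in the UK5099 groups and was not called.

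Matrix proteins, proteases and genes of epithelial-mesenchymal transition formed the list with the most genes lowered. Of 39 listed and found genes, 28 were analysed, and 16 of these were lower and none higher, beside 2.06% of all genes analysed. The list's median was -1.10, against -0.29 for all genes, and with median of ratios scaling 11 were lower and 1, Tgfbi, higher.

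Timp1, the tissue inhibitor of metalloproteinases, had the lowest difference of all. It was at 13.6, 12.5 and 12.3 TPM in UK5099 and 1.11, 1.1 and 1.11 in UK5099 + Butyrate (-2.71 ± 0.07, adjusted p = 4.6e-09), with means in a ratio of 11.6. Mmp7, the metalloproteinase matrilysin, fell from 128, 128 and 125 to 18.1, 20.9 and 20.2 (-2.63 ± 0.05). Thbs1, the paralog of Thbs2, fell from 199, 204 and 212 to 36.2, 42.6 and 43.4 (-2.31 ± 0.06). The 2 thrombospondin genes thus moved in opposite directions, and each held its direction under every scaling tried. Tnc, tenascin C, fell from 16.9, 18 and 18.8 to 2.72, 2.93 and 3.24 (-2.25 ± 0.05). Spp1, osteopontin, was at 5.82, 7.41 and 8.13 against 0.29, 0.407 and 1.77 (-2.23 ± 0.25), with 19 to 110 fragments in the libraries with butyrate and a wide spread among them. Fn1, fibronectin, had means of 2.14 and 0.252, and Vim, vimentin, of 1.66 and 0.154. Fn1, Vim, Spp1 and Tgfb3, 4 of the 16, entered through UK5099 only, so a difference was built into their choice.

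Lama3, a laminin chain of the epithelial basement membrane, had means of 29.5 and 12.6 TPM, and Plec, the hemidesmosomal linker plectin, of 72.1 and 35. Both were called lower but not with median of ratios scaling, and Plec was also lost without replicate 1 of UK5099 + Butyrate, 1 of the libraries that stood apart. Chosen after their values were seen, Col7a1, the anchoring fibril collagen, fell from 54.3, 55.8 and 57 to 12.3, 13.2 and 13.6 (-2.01 ± 0.04). Itga2, an integrin collagen receptor, fell from 27.6, 29.3 and 30.7 to 8.92, 9.97 and 10.2 (-1.50 ± 0.05), Ilk, integrin-linked kinase, from 55, 58.7 and 60.6 to 18.6, 18.4 and 19.4 (-1.58 ± 0.04) and Flna, filamin A, from 259, 260 and 273 to 83.9, 90.5 and 92.3 (-1.56 ± 0.04). All 4 were also lower with median of ratios scaling. Of 11 integrin genes analysed, 3 were lower and none higher, beside 2.06% of all genes analysed, and 1 was lower with median of ratios scaling.

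Of 41 listed chemokines and acute inflammation genes, 27 were analysed, and 8 of these were lower and none higher, beside 2.06% of all genes analysed, with a median of -0.74, and 5 were lower with median of ratios scaling, where Il33 was higher. Clu, the secreted chaperone clusterin, fell from 50.2, 52.7 and 55.6 TPM to 8.47, 8.85 and 8.24 (-2.50 ± 0.04). Lcn2, lipocalin 2, fell from 65.8, 61.6 and 59.7 to 11.8, 16.7 and 14.8 (-2.05 ± 0.10). Ptgs2, the inducible cyclooxygenase, fell from 864, 952 and 982 to 264, 296 and 301 (-1.70 ± 0.06), and the neutrophil chemokine Cxcl1 from 226, 255 and 241 to 70.6, 79.6 and 79.7 (-1.64 ± 0.05). In each of these genes every UK5099 + Butyrate library was below every UK5099 library, as in all 284 genes called lower. Slco2a1, the prostaglandin transporter, fell as well, from 39.6, 40.5 and 41.6 to 5.83, 6.21 and 6.49 (-2.54 ± 0.03).

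Several other genes of the inflammatory response were not called. The NF-kB inhibitor Nfkbia was at means of 537 and 533 TPM (-0.01), Ccl2 at 39.6 and 41.6, and C3, complement component 3, at 37.9 and 35.8. Among cytokines outside the list, chosen after their values were seen, Csf2 was at 6.14, 9.69 and 8.17 against 1.21, 0.924 and 0.996 (-2.12 ± 0.14), Csf3 at 36.5, 38 and 36.9 against 8.39, 10.6 and 8.92 (-1.89 ± 0.09) and Lif at 59.3, 63.1 and 62 against 18.1, 20 and 20.6 (-1.60 ± 0.05).

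**Figure D3:**
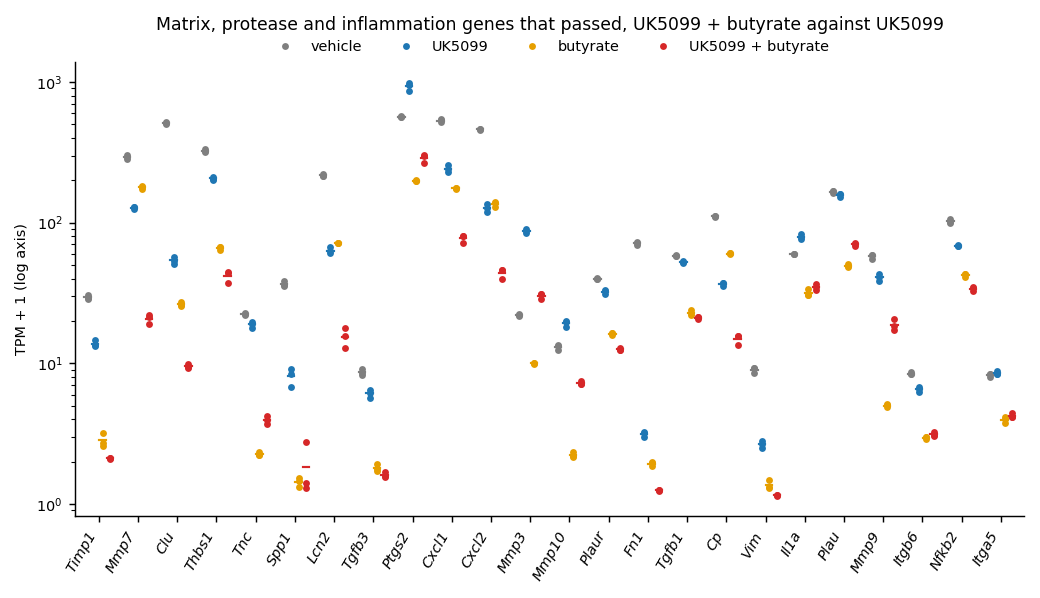
TPM + 1 on a log axis for the 24 genes of the matrix and inflammation lists that passed both thresholds between UK5099 + Butyrate and UK5099, in all 4 groups. Points are single libraries and bars group means (n = 3). Red lies below blue for every gene, and the vehicle mean is above that of UK5099 except for Ptgs2, Mmp3, Mmp10, Il1a and Itga5.

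The remaining genes with the lowest differences were of mixed roles. Nlrp10, an NLR family member, fell from 75.7, 75.4 and 78 TPM to 12, 12.3 and 12 (-2.56 ± 0.03). Bhlhe41, a repressor of the circadian clock, fell from 128, 123.1 and 124 TPM to 21.6, 20.7 and 20.5 (-2.52 ± 0.03, adjusted p = 1.2e-10). Inhba, the activin A subunit, fell from 101.5, 111 and 114 to 18.5, 21.7 and 21.5 (-2.35 ± 0.07). Pcdh18, a protocadherin, went from 10.6, 11 and 11.5 to 1.25, 1.38 and 1.21 (-2.40 ± 0.04). Krt20, a keratin of differentiated urothelium and gut, fell from 27.2, 24.1 and 27.9 to 5.41, 3.46 and 4.1 (-2.38 ± 0.13). Upk1a, a uroplakin, was at 2.5, 1.87 and 3.37 against 0.26, 0.196 and 0.294 (-1.50 ± 0.13), and entered through UK5099 only. The other uroplakins analysed were not called, with Upk1b at means of 3.51 and 1.92 and Upk2 at 0.411 and 1.43.

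Of 18 luminal genes analysed, 4 were called lower and none higher, beside 2.06% and 1.48% of all genes analysed, and 2 were lower with median of ratios scaling. Krt8 was at 370, 373 and 348 TPM in UK5099 and 120, 116 and 120 in UK5099 + Butyrate (-1.61 ± 0.03, adjusted p = 5.5e-10). Krt18, its partner, was at 757, 739 and 748 against 366, 356 and 356 (-1.06 ± 0.02), and Epcam at 296, 301 and 311 against 91.2, 97 and 98 (-1.66 ± 0.03). Krt8 and Epcam were the 2 that median of ratios scaling kept. The luminal list had a median of -0.54, or -0.19 with that scaling. Hoxb13 was at means of 42.3 and 35 and Foxa1 at 231 and 175, neither called. Krt4 was at 476 and 657.

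Basal keratins did not pass the thresholds. Krt5 was at 4874, 4926 and 4991 TPM in UK5099 and 4532, 4497 and 4515 in UK5099 + Butyrate (-0.13 ± 0.02), Krt14 at 4863, 5040 and 5237 against 3779, 3561 and 3583 (-0.47 ± 0.03), and Trp63, the basal transcription factor p63, at 8.87, 9.81 and 10.1 against 8.34, 8.93 and 9 (-0.12 ± 0.04, adjusted p = 0.043). Krt15 was at means of 3597 and 1932 (-0.90 ± 0.03), under the size limit. Of 18 basal genes, all analysed, 3 were called lower, beside 2.06% of all genes analysed. Lama3 and Plec were among them, and none was called with median of ratios scaling. The basal list had a median of -0.56, or -0.23 with that scaling, close to that of the luminal list, and the difference between the lists was not tested. Against the median of all genes, -0.29, Krt5 and Trp63 fell less, while Krt14, Krt15, Lama3, Plec and the basal list's median fell more.

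Most listed markers of other cell types were under 1 TPM, while Cd68, given above, was the only immune marker analysed and was called higher. Of 8 fibroblast markers in the table only Dcn, decorin, reached 1 TPM, at 1.03, 1.4 and 1.24 in UK5099 and 1.24, 1.59 and 1.41 in UK5099 + Butyrate, while the type I collagen gene Col1a1 was at means of 0.943 and 0.615. Dcn was at a mean of 9.52 with butyrate alone, and its difference of effects was -2.46. The endothelial gene Pecam1 was at 0.015 and 0.028, and none of 3 muscle markers in the table reached 1 TPM. Of 20 neuronal and neuroendocrine genes listed there, 3 were analysed, none of them called, and Chga, chromogranin A, was at 0.088 and 0.055.

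Of 26 gap junction and adhesion genes, 2 were lower, beside 2.06% of all genes analysed. The other 24 were not called, desmosomal ones included, and the list's median was -0.43. Gja1, the most widely expressed connexin, was at means of 426 and 458 TPM and was not called. In the Notch list, with 11 genes analysed, the ligand Jag1 fell from 73, 75.9 and 80.4 TPM to 30.9, 32.2 and 32.3 (-1.24 ± 0.03) and the target Hey1 from 3.05, 2.41 and 2.73 to 0.326, 0.956 and 0.515 (-1.24 ± 0.14), the latter entering through UK5099 only. The receptor Notch1, at 22 and 16.6, and the target Hes1, at 110 and 127, were not called. In this list 2 genes were thus lower, beside 2.06% of all genes analysed, and Jag1 was not called with median of ratios scaling.

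Of 19 genes analysed from a list of monocarboxylate transport and butyrate use, 1 was higher and 2 lower, beside 1.48% and 2.06% of all genes analysed. Slc16a1, the monocarboxylate transporter MCT1, which carries butyrate, pyruvate and lactate, rose from 17.1, 19 and 18.6 TPM to 43.6, 46.4 and 47.1 (1.28 ± 0.04, adjusted p = 1.1e-08). Cpt1a, which admits long-chain fatty acids to mitochondria, fell from 4.45, 4.47 and 4.67 to 1.64, 1.7 and 1.74 (-1.04 ± 0.03), and Ldhd, mitochondrial D-lactate dehydrogenase, from 35.9, 35.4 and 35.1 to 17, 15.7 and 16.1 (-1.08 ± 0.04). The last 2 calls were lost with median of ratios scaling. The short-chain acyl-CoA dehydrogenase Acads, at 16.1 and 14.3, the ketone enzyme Oxct1, at 5.82 and 5.62, and the butyrate receptor Hcar2, at 256 and 225, were not called. None of 14 genes of the pyruvate carrier and dehydrogenase, 16 of glycolysis, 26 of the TCA cycle or 29 of cholesterol and fatty acid synthesis was called, on deposited TPM or with median of ratios scaling. Their median differences were -0.31, -0.01, -0.20 and -0.40.

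The histone deacetylases themselves were not called either. With 1.48% of all genes analysed called higher and 2.06% lower, few calls or none are expected in each list of this paragraph. For the 15 analysed the median was -0.19, and the class I members Hdac1, Hdac2 and Hdac3 had means of 7.51 and 6.46 TPM, 15.9 and 11.8, and 21.8 and 16.2. None of 36 acetyltransferases, readers and corepressors and none of 11 replacement histones was called. Among 16 CDK inhibitors and G1 cyclins only Ccnd2, cyclin D2, was called. It rose from 15.1, 16.8 and 17 to 38.7, 42.6 and 42.4 (1.29 ± 0.05). Cdkn1a, the inhibitor p21 that histone deacetylase inhibitors often induce, was at means of 133 and 97.8 and Ccnd1, cyclin D1, at 356 and 192, neither called. None of 39 replication and mitosis genes was called, with a median of -0.40.

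A few further listed genes passed. Over all genes analysed 1.48% were called higher and 2.06% lower, so lists as short as these are expected to hold few calls or none. H2-Ab1, the beta chain of MHC class II, rose from 0.472, 0.656 and 0.495 TPM to 6.29, 6.17 and 6.62 (2.26 ± 0.06), the only call among 18 antigen presentation genes, and H2-Ab1 entered only through UK5099 + Butyrate, so a difference was built into its choice. The class I gene H2-K1, at means of 330 and 336, was not called. H2-Q7, a class I gene outside the list chosen after its values were seen, was higher, at 1.94, 1.54 and 2.4 against 7.35, 7.82 and 7.81 (1.56 ± 0.11), with mostly fractional fragments at low values. Ddit3, the stress factor CHOP, rose from 7.76, 7.89 and 8.22 to 16.7, 18.5 and 17.3 (1.04 ± 0.06), the only call among 23 genes of the integrated stress response. Atf4, upstream of it, was at 749 and 801. In the AP-1 family Fos rose from 124, 130 and 126 to 256, 271 and 271 (1.06 ± 0.03), while Fosl1 and Fosl2 fell from means of 35.1 to 15.5 and of 101 to 48 (-1.13 ± 0.05 and -1.06 ± 0.03). The last 2 were not called with median of ratios scaling. None of 18 interferon response genes, 12 of the Bcl2 family, 14 of retinoic acid metabolism or 23 redox genes and metallothioneins was called.

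**Figure D4:**
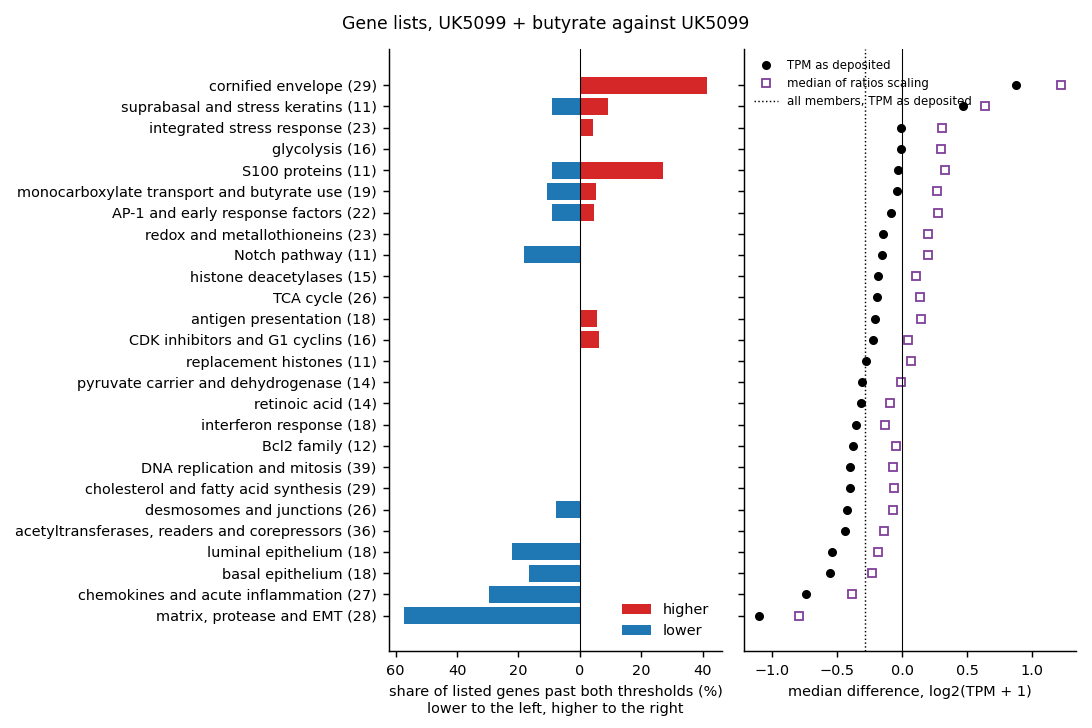
Left, share of the analysed genes of each list that passed both thresholds between UK5099 + Butyrate and UK5099, with lower to the left and higher to the right. Right, median log2 difference of each list on deposited TPM (dots) and after median of ratios scaling (squares), with the median of all genes analysed dotted. The number of genes is in brackets, and only lists of 10 or more are drawn. Cornified envelope genes lie highest and matrix genes lowest on both scales.

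Transcription factors were among the genes that changed. Named after their values were seen, Pitx1, a homeobox factor, was at 0.026, 0.0586 and 0.0759 TPM in UK5099 and 4.76, 4.42 and 4.25 in UK5099 + Butyrate (2.38 ± 0.04), and Foxe1, a forkhead factor, at 0.144, 0.0466 and 0 against 5.17, 4.52 and 3.3 (2.31 ± 0.15). Pou3f1, a POU factor of epidermis and glia, rose from 1.02, 0.916 and 0.911 to 8.22, 8.24 and 8.29 (2.25 ± 0.09). All 3 passed the limit of 1 TPM through UK5099 + Butyrate only. Id1, an inhibitor of basic helix-loop-helix factors, rose from 16.3, 17.9 and 16.7 to 52.9, 50.6 and 57.4 (1.60 ± 0.06). Sox9 went the other way, from 200, 212 and 218 to 88.7, 97.3 and 95.5 (-1.15 ± 0.04), a call not kept with median of ratios scaling.

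Of 48 replication-dependent histone genes, taken by symbol after values were seen, 7 were higher, beside 1.48% of all genes analysed, and 1, the linker histone H1f5, lower, with 10 higher and none lower by median of ratios scaling, and their summed TPM overlapped, at 707 to 768 in UK5099 and 695 to 740 in UK5099 + Butyrate. H2ac6 rose from 2.85, 2.45 and 2.5 to 9.76, 8.63 and 8.67 (1.48 ± 0.10) and H3c4 from 1.44, 2.42 and 2.35 to 9.11, 6.84 and 8.95 (1.61 ± 0.15). Nearly all low values of these genes were fractional, so fragments were divided among copies and single genes are uncertain. Of 14 Sprr genes of the envelope, 2 were higher, and of 4 Stfa and Cstdc genes 3, beside the same 1.48%.

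Both ribosomal RNAs of the mitochondrion were called, mt-Rnr1 from a mean of 3153 to 10790 TPM (1.77) and mt-Rnr2 from 6310 to 14560 (1.21). Of 13 protein genes of the mitochondrion none was called, although all had differences above 0, from 0.15 for mt-Atp8 to 0.95 for mt-Nd2, and 4 were higher with median of ratios scaling. Of 10 mitochondrial tRNA genes 4 were higher, beside 1.48% of all genes analysed. When mitochondrial genes were left out and the rest rescaled, 238 genes were higher and 239 lower.

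Butyrate alone, set against vehicle, shares no library with the comparison above. Over the 13759 genes it raised 271 (1.97%) and lowered 539 (3.92%). The median difference of these 13759 genes was -0.29, as within UK5099, and the counts in this paragraph are on deposited TPM, without rescaling. Of the 271, 133 also rose in UK5099, which is 49.1% of them and 65.5% of the 203. Of the 539, 202 also fell, which is 37.5% of them and 71.1% of the 284. Among genes called in both the same way, the difference was larger without UK5099 in 240 of 335. The median difference of the 271 genes was 1.47 without UK5099 and 0.97 with it, and of the 539 it was -1.28 and -0.89. The first of each pair is the measure that chose the genes. Across all 13759 genes the differences had a Pearson r of 0.76 and a Spearman rho of 0.76, as a description, since genes are not independent.

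The effect of butyrate itself differed with and without UK5099 in 218 genes, 97 with a higher (0.705%) and 121 with a lower (0.879%) effect in UK5099. The 6 lowest differences were in genes that butyrate raised from low levels in vehicle and whose means in UK5099 alone were above those in vehicle. Nccrp1 rose from a mean of 2.83 TPM in vehicle to 228 in butyrate, while in UK5099 it was already at 206, 152 and 240 and reached 676, 441 and 458, a difference of effects of -4.51 ± 0.26 (adjusted p = 4.2e-06). Ly6g6c had a difference of effects of -3.89, Crnn of -3.42, Aqp3, a glycerol and water channel, of -3.75 and Teddm3 of -4.06. Aqp3 and Teddm3 were not called within UK5099, with means of 153 and 279.5 TPM and of 77.8 and 137. Spink5, a protease inhibitor of the epidermis, rose from 1.67 to 19.9 without UK5099 and was at 15, 11.6 and 13 against 9.92, 8.27 and 8.44 with it (-0.52 ± 0.09, not called). Of the 29 cornified envelope genes 11 had a lower effect in UK5099 and 3 a higher one, beside 0.879% and 0.705% of all genes analysed.

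At the other end, the 6 largest differences among protein-coding genes were in genes that butyrate lowered in vehicle. Other genes with a higher effect in UK5099, such as Fabp4 and Ckb, rose with butyrate in vehicle too. Fn1 fell from a mean of 70.2 TPM in vehicle to 0.938 in butyrate and from 1.98, 2.24 and 2.21 in UK5099 to 0.234, 0.257 and 0.265 with both, a difference of effects of 3.87 ± 0.05. Mmp9, a gelatinase whose call within UK5099 was lost with median of ratios scaling, fell from 56.6 to 4 without UK5099 and from 37.7, 40.3 and 41.9 to 16.4, 17.3 and 19.5 with it (2.39 ± 0.09). Tubb2b, a tubulin, and Oasl2, an interferon-induced gene, had differences of 1.93 and 1.85, and Spp1 of 2.44. Chac1, a glutathione-degrading stress gene, was lowered by butyrate alone, from 7.45 to 2.37, and was at 2.57, 2.65 and 3.07 against 4, 5.08 and 4.54 in UK5099 (1.88 ± 0.12). In the lists, 5 of 23 integrated stress response genes and 5 of 18 interferon response genes had higher effects in UK5099 and none a lower one. Over all genes analysed, 0.705% had a higher effect.

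Some genes were called with UK5099 and not without it, with the difference of effects itself past the thresholds. Of the 203 genes that rose this held for 14, and of the 284 that fell for 15. Among those that rose, named after their values were seen, were the envelope genes Tgm3, Cnfn, Sprr3, Sprr2i and Lce3c. Lce3c was at 0.216, 0.209 and 0.194 TPM in UK5099 and 3.71, 2.58 and 3.39 in UK5099 + Butyrate, and at means of 0.064 in vehicle and 0.274 in butyrate. At such low values adding 1 understates any change without UK5099. Tgm3, Sprr3 and Lce3c passed the limit of 1 TPM through UK5099 + Butyrate only, so a difference was built into their choice. Among those that fell, named likewise, were Mmp7, Krt20, Ldhd and Glul, which encodes glutamine synthetase. Mmp7 was at a mean of 292 TPM in vehicle and 177 in butyrate, a difference of -0.72, against -2.63 in UK5099. Krt20 was at 1.94 and 2.63 without UK5099, and Glul was at 88 and 83 without UK5099 and 80.1 and 29.5 with it.

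**Figure D5:**
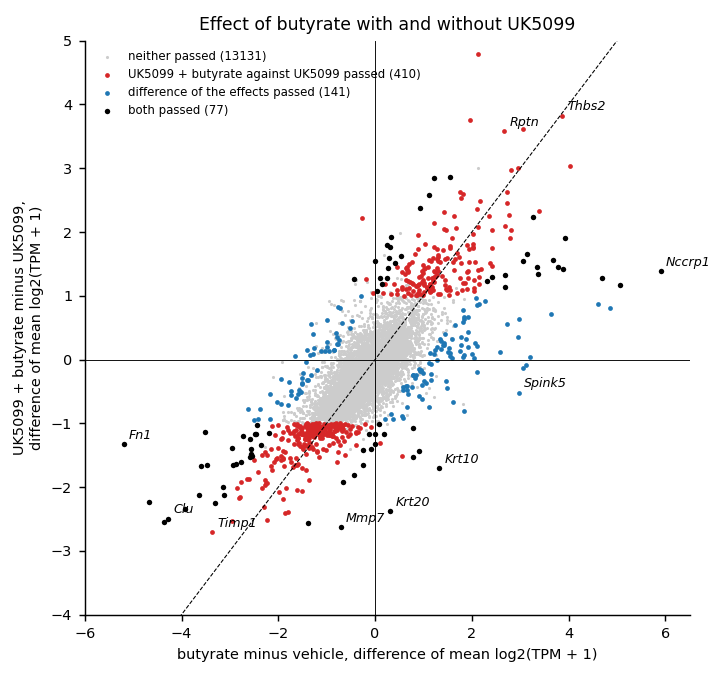
Each point is 1 of the 13759 genes, with the log2 difference of butyrate from vehicle on the x axis and of UK5099 + Butyrate from UK5099 on the y axis. Grey genes passed neither test, red the comparison within UK5099, blue the difference of effects and black both, and the dashed line marks equal effects. Nccrp1 and Fn1 lie far from the dashed line, Krt10 lies at lower right, and the topmost point is Snord22.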

How the data were processed

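RNA was sequenced as read pairs from 12 organoid samples in 4 groups taken from the sample labels. The authors deposited TPM per gene. The submitters' processing notes name STAR 2.7.9a, Partek and GRCm39. The study's methods name fastp, another STAR version, GRCm38 and RSEM. Gene positions in the table matched GRCm38 for 2.08% of nuclear genes, so no position from it was joined with a reference. TPM was found to use genomic span, and low values were whole multiples of 1 fragment (tolerance 0.02) in 66.2% to 67.5% of those under 1000 fragments, which gave the depth.

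limma 3.58.1 in R 4.3.3 was fitted to log2(TPM + 1) of all 12 samples and all 24674 genes, with UK5099, butyrate and their interaction, empirical Bayes moderation and Benjamini-Hochberg adjustment over all genes. Thresholds were 0.01 for adjusted p and 1 for the absolute log2 difference. The limma step was tested on simulated data. Gene lists were described by counts and medians, without a set test. Named genes were the 12 highest and 12 lowest called protein-coding genes without overlap, the 6 largest and 6 smallest interactions, genes of opposite direction and up to 4 called genes per list. Other genes are marked as chosen after their values were seen. A few genes that the rule names are not reported here, and the counts of named genes leave them out. Members and lists were chosen with earlier results of these data known. Same-numbered replicates did not deviate together (r of -0.10 to 0.03), so numbers were not treated as pairs. All replicate pairs differed by more than sampling noise. Alternatives were pseudocounts, scalings, voom on recovered fragments, the prior, a replicate block, thresholds and leaving out libraries. Figures were drawn with matplotlib 3.10.9.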

Additional observations from a re-analysis of the deposited data

Results flagged for a closer look

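The effect of butyrate differed with and without UK5099 in 218 genes, by the interaction term of the limma fit. Among the named genes, those with a higher effect in UK5099 were Fn1 (3.87), Spp1 (2.44), Mmp9 (2.39), Tubb2b (1.93), Chac1 (1.88), Oasl2 (1.85), Clu (1.78), Fabp4 (1.62), Inhba (1.58), Tgm3 (1.55), Ckb (1.48), Crct1 (1.32), S100a4 (1.10) and Tnc (1.06), each value being the difference of the 2 log2 differences. Those with a lower effect were Nlrp10 (-1.17), Ldhd (-1.86), Mmp7 (-1.91), Krt20 (-2.68), Krt10 (-3.03), Crnn (-3.42), Spink5 (-3.49), Aqp3 (-3.75), Ly6g6c (-3.89), Teddm3 (-4.06) and Nccrp1 (-4.51). For Fn1, Spp1, Mmp9, Tubb2b, Clu, Inhba and Tnc the higher value is a smaller fall in UK5099. For Fabp4, Ckb, Crct1 and S100a4 it is a larger rise in log2(TPM + 1). Tgm3 rose in UK5099 and was not called without it, at a difference of -0.006. Crct1 was lost in 9 of the 12 fits that left out 1 library, and its sign turned under 3 other settings, which the next part gives.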

How the results depend on the processing

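The replicate block left 200 genes higher and 278 lower, and 93 and 118 with a higher or lower effect in UK5099, and changed no call of a named gene. With 1 library left out, 464 to 495 genes were called, 196 to 213 higher and 268 to 293 lower, and 84 to 94 effects were higher and 112 to 128 lower in UK5099. Plec was not called without UK5099 + Butyrate replicate 1. Pseudocounts of 0.1 and 0.01 gave 864 genes (322 higher, 542 lower) and 931 genes (329 and 602), and 202 and 213 lower effects. Median of ratios gave 329 higher and 115 lower, quantile normalisation 127 lower. Voom on recovered fragments gave 806 genes, 561 of them higher, and 339 interactions, 224 of them negative. An adjusted p under 0.05 with no size limit gave 10110 genes (1477 higher, 8633 lower) and 4225 interactions (2066 and 2159). The interaction of Crct1 turned to -1.82 with a pseudocount of 0.01, -0.35 with 0.1 and -0.79 with voom. Its means were 0.0889 TPM in vehicle, 2.21 in butyrate, 2.07 in UK5099 and 20.8 in UK5099 + Butyrate. Adding 1 understates a change from a level as low as that in vehicle. The positive sign of its interaction therefore depends on the scale, and the cause was not tested. Of 60 named genes called between UK5099 + Butyrate and UK5099, 48 were called in every setting and none reversed, and 10 were not called with median of ratios scaling (Cpt1a, Fosl1, Fosl2, Jag1, Krt18, Lama3, Ldhd, Mmp9, Plec and S100a1). Without both libraries that stood apart and without mitochondrial genes, settings chosen after seeing the data, 59 and 56 were called. Of 25 named interactions 22 were called in every setting, with Crct1, Fabp4 and Spp1 the exceptions. Precision is limited by 3 libraries a group, and genes sharing fragments with copies stay uncertain at any depth.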
